A study of Mus musculus with 8 samples.

Results

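The replication-dependent histone genes are the 67 protein-coding genes of the GENCODE M21 annotation of the mouse genome (mm10) whose symbols begin with *Hist1h*, *Hist2h*, *Hist3h* or *Hist4h*, out of 21951 protein-coding genes. They comprised 6 genes for linker histone H1, 18 for H2A, 18 for H2B, 12 for H3 and 13 for H4. A gene was said to have a DNA-RNA immunoprecipitation (DRIP) peak when a peak overlapped its body or the 1 kb to either side by at least 1 bp, and a body with these margins is called its window. Of the 67 genes, 30 had a peak in at least 1 of 4 peak lists and 37 had none (55.2%, against 26.1% of all protein-coding genes). The rule uses the gene symbol and no measured value.

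Histone proteins package newly replicated DNA, so these genes are transcribed strongly during S phase and lie in clusters of near-identical copies. H2A, H2B, H3 and H4 form the nucleosome core and H1 binds the linker DNA. Most of these genes lack introns, and their mRNAs end in a conserved hairpin bound by SLBP instead of a poly(A) tail. R-loops form when RNA anneals to the DNA template behind the polymerase and displaces the other strand, RNaseH1 degrades the RNA of such hybrids, and RTEL1 is a helicase that unwinds G-quadruplex (G4) DNA.

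DRIP-seq was done in mouse embryonic fibroblasts (MEFs) with floxed *Rtel1* alleles and a doxycycline-inducible wild-type human RNaseH1 fused to GFP, which cells of every group carried. GFP cells received GFP adenovirus and kept *Rtel1*, and Cre cells received Cre-GFP adenovirus, which deletes it. Doxycycline at 2 µg/ml was added 48 h after the virus for 48 h (DOX) or omitted (mock), so that each genotype had a mock and a DOX group. For each group 3 precipitations with the S9.6 antibody, which recognizes RNA:DNA hybrids, were pooled into 1 library, and the 4 input libraries were not analysed here. Without replicates no difference between lists could be compared with a replicate error, and no test was made. The GFP lists held 87613 (mock) and 60219 (DOX) peaks and the Cre lists 91097 and 105081, and in this order they covered 1.33%, 1.18%, 1.75% and 3.27% of the genome. Their narrowest peaks were 106, 107, 132 and 213 bp wide in the same order, and the read depth behind them is unknown. In bulk cells, a hybrid in more cells and more hybrid per cell cannot be told apart, and the lists do not show whether *Rtel1* was lost.

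The hairpin that defines this class of mRNA was looked for in the 300 bases after the last coding base, as a stem of 6 bp that opens with GG around a loop of 4 bases that opens with TTT. It was found in 60 of the 67 genes, in 6 forms, at 24 to 61 bases after the coding sequence (median 34). Of 21884 other protein-coding genes 9 had it (0.0411%), among them *H2afx*, which encodes a replication-independent H2A variant. The 3 commonest forms are shown because they set H4 apart from the other families, with the stem in capitals and the loop in lower case.
Form of 38 genes of H1, H2A, H2B and H3: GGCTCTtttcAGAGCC
Form of 9 genes of H1, H2A, H2B and H3: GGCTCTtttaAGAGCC
Form of 8 genes of H4: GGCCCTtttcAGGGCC
The genes without a match were *Hist1h2an*, *Hist1h2bp*, *Hist1h2bq*, *Hist1h2br*, *Hist1h3g*, *Hist1h4a* and *Hist2h2be*. A peak touched the hairpin of 3 genes in GFP mock, 1 gene in GFP DOX and 2 genes in each Cre list. The GFP mock ones were those of *Hist1h1a*, *Hist2h2ab* and *Hist2h2ac*, the GFP DOX one was that of *Hist1h3e*, and *Hist1h1e* had its hairpin in a peak in both Cre lists.

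In GFP mock, 20 of the 67 histone genes had a peak (29.9%, exact 95% confidence interval 19.3 to 42.3), against 55.0% of all protein-coding genes. In GFP DOX, 3 had one (4.48%, 0.933 to 12.5), against 46.0%. In Cre mock the number was 15 (22.4%, 13.1 to 34.2), against 60.4%, and in Cre DOX it was 12 (17.9%, 9.61 to 29.2), against 54.1%. These intervals cover counting error over genes only, and genes that share a peak are not independent. Histone genes therefore had a peak less often than protein-coding genes at large in each list, with the widest gap in GFP DOX. They are also short, with a median annotated length of 539 bp against 17403 bp. A short window can meet fewer peaks, and the part of length in the gap was not tested. Among the 6154 protein-coding genes no longer than the longest one-exon member (7425 bp), the shares were 30.2% for GFP mock, 26.3% for GFP DOX, 35.0% for Cre mock and, for Cre DOX, 1844 of the 6154 genes. These genes were still longer than the histone genes, with a median of 3794 bp. The 1331 one-exon genes, which include 62 of the members and had a median length of 1068 bp, gave 19.2%, 14.8%, 19.2% and 17.6% in the same order. The histone share was thus below that of one-exon genes in GFP DOX, above it in GFP mock and near it in both Cre lists, and the lower Cre shares against short genes came with a difference in length. The 98 cytosolic ribosomal protein genes, another set of short and highly transcribed genes, gave 60.2%, 69.4%, 80.6% and 83.7%.

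**Figure D1:**
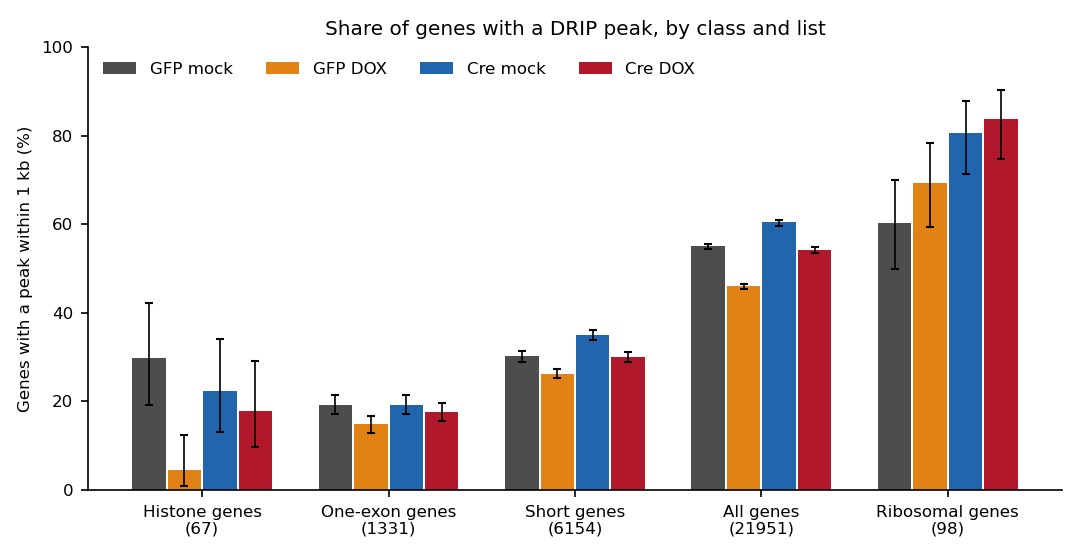
Percentage of genes with a DRIP peak within 1 kb in each of the 4 lists (bars), for the 67 histone genes, one-exon genes, genes up to 7425 bp (short), all protein-coding genes and cytosolic ribosomal protein genes; the error bars are exact 95% intervals for counting error. The histone bar for GFP DOX stands at 4.48%, below the 14.8% of one-exon genes and the 26.3% of short genes.

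Covered length gave the same low value in GFP DOX. Of the 199 kb of histone windows, peaks covered 2.17% for GFP mock and 0.707% for GFP DOX, and 2.93% for Cre mock and 3.26% for Cre DOX. Windows of all protein-coding genes had 1.27%, 1.27%, 2.20% and 2.42% of their length in peaks, and windows of short genes 3.87%, 4.96%, 7.53% and 6.26%. Windows of one-exon genes had 3.22%, 2.82%, 3.98% and 3.99%. Histone windows were thus covered more densely than gene windows in general in every list except GFP DOX. They were covered less densely than those of short and one-exon genes in all 4. In GFP mock this differs from the share of genes with a peak, which was above that of one-exon genes. Ribosomal protein gene windows, at 3.75%, 7.64%, 12.3% and 12.9%, had a higher value with doxycycline in GFP cells, where the histone value was lower.

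Induction of RNaseH1 in *Rtel1*-proficient cells was the comparison with the largest turnover. All 20 histone genes with a peak in GFP mock lacked one in GFP DOX, whereas 15.9% of all protein-coding genes had a peak in GFP mock and none in GFP DOX. Put per gene with a GFP mock peak, 29.0% of protein-coding genes, 37.2% of short genes and 46.9% of one-exon genes had none in GFP DOX. The reverse class, a peak in GFP DOX and none in GFP mock, held 3 histone genes and 6.92% of all protein-coding genes. No histone gene had a peak in both GFP lists, where 3 was the most possible, against 8572 of the 21951 protein-coding genes. GFP DOX is also the shorter list, with 60219 peaks against 87613. The count of 20 was 13 with the 60219 best-scoring peaks of each list and 13 without the 1 kb margin. It was 10 with peaks of −log10 q of at least 2, and in each case none of the genes was in GFP DOX. The shares of all protein-coding genes for this pair of lists were not computed under these settings. In *Rtel1*-deficient cells, 5 histone genes had a peak in Cre mock and none in Cre DOX (all protein-coding genes, 13.9%), and 2 had the reverse (7.62%). Here 10 genes had a peak in both lists, so that 33.3% of the histone genes of Cre mock were without a peak in Cre DOX, compared with 23.0% of protein-coding genes, 34.2% of short genes and 37.5% of one-exon genes. The Cre share was close to the background of short and one-exon genes. The GFP share was not, but it largely restates the low GFP DOX count. With 3 histone genes in that list, at most 3 of the 20 could have had a peak in both. Whether the GFP and Cre shares differ beyond library-to-library variation was not tested.

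In the lists without doxycycline, Cre mock had fewer histone genes with a peak than GFP mock but more covered length (2.93% against 2.17% of the windows). The number with a peak in GFP mock and none in Cre mock was 12 (all protein-coding genes, 8.22%), and the number with a peak in Cre mock and none in GFP mock was 7 (13.6%), with 8 genes in both. With an equal number of peaks from each list, the 60219 best-scoring ones, these numbers were 6 (9.35%) and 5 (14.8%), so the gap between the mock lists was nearly closed. With doxycycline, 10 genes had a peak in Cre DOX and none in GFP DOX (15.2%), 1 had the reverse (7.02%) and 2 were in both. By list membership, 12 genes (17.9%) had a peak only in GFP mock, against 3.87% of all protein-coding genes. The shares of genes found only in Cre mock (3 genes, 4.48% against 5.04%), only in Cre DOX (2 genes, 2.99% against 3.58%) and only in GFP DOX (1 gene, 1.49% against 1.10%) were near that background. Another 2 genes were shared by the mock lists (2.99% against 3.86%), 2 by the Cre lists (2.99% against 3.43%), 6 by every list but GFP DOX (8.96% against 5.88%) and 2 by every list but GFP mock (2.99% against 3.66%). No histone gene had a peak in all 4 lists, which 7362 protein-coding genes (33.5%) did. At most the 3 histone genes of GFP DOX could have.

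Peak strength was compared with that of each whole list. Scores are −log10 q-values multiplied by 10, and the fold enrichment of a peak is its signal over the local background of the caller. After counting a peak shared by neighboring genes once, the GFP lists held 15 peaks (mock) and 3 (DOX) and the Cre lists 12 and 13. Their median scores were 20, 27, 18.5 and 18 in that order, against 18, 17, 19 and 18 over each whole list. Of these 43 peaks, 5 reached the top decile of scores of their list, 3 of GFP mock and 1 of each DOX list. The study itself kept only top-decile peaks. Under that restriction 4 histone genes had a peak in GFP mock (all protein-coding genes, 13.1%), 1 in GFP DOX (9.92%), none in Cre mock (16.7%) and 1 in Cre DOX (9.91%), too few to compare the lists. Fold enrichments lay between 2.74 and 4.54. Pooled over lists the peaks fell into 30 separate places, of which 21 appeared in 1 list, 5 in 2, 4 in 3 and none in all 4.

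**Figure D2:**
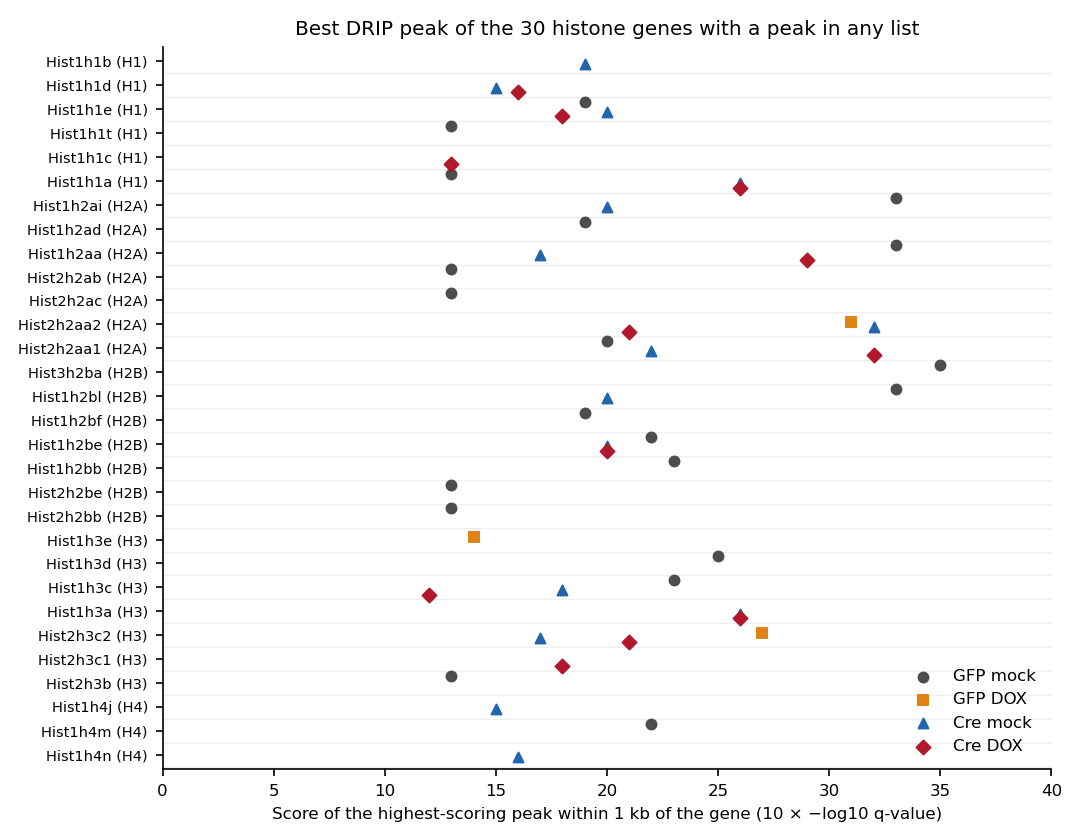
Score (10 × −log10 q-value) of the highest-scoring peak within 1 kb of each of the 30 histone genes with a peak, grouped by family; each symbol is 1 library and a missing symbol means no peak. Scores ran from 12 to 35, with GFP DOX symbols at 3 genes only.

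The H1 genes encode linker histones, and all 6 had a peak in some list, with 3 genes in GFP mock, none in GFP DOX and 4 in each Cre list. For so few genes the GFP mock and Cre counts were near the shares of all protein-coding genes given above. *Hist1h1e* had a peak over its start codon in 3 lists, scoring 19 (GFP mock), 20 (Cre mock) and 18 (Cre DOX) with folds of 3.52, 3.60 and 3.11. The GFP mock peak was 144 bp wide and lay inside the gene, and the Cre peaks were 1195 and 895 bp wide and reached over its hairpin. The coding bases common to the 3 peaks (mm10 chr13:23622414-23622497, minus strand) are shown from the start codon because they are the stretch of a histone gene found in every list but GFP DOX.
Hist1h1e: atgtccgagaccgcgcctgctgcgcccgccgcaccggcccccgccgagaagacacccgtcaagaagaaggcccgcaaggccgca
These 84 bases had a GC content of 72.6%. *Hist1h1a* had a peak across its end in GFP mock (score 13) and peaks before its start in Cre mock and Cre DOX (score 26 in both) that did not overlap each other and also fell in the window of *Hist1h3a*. *Hist1h1d* had a peak in its annotated body in Cre mock (15) and 2 in Cre DOX (16 and 12). The remaining linker genes had a peak in 1 list each, *Hist1h1b* in Cre mock (19), *Hist1h1c* in Cre DOX (13) and *Hist1h1t*, the testis form, in GFP mock (13).

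**Figure D3:**
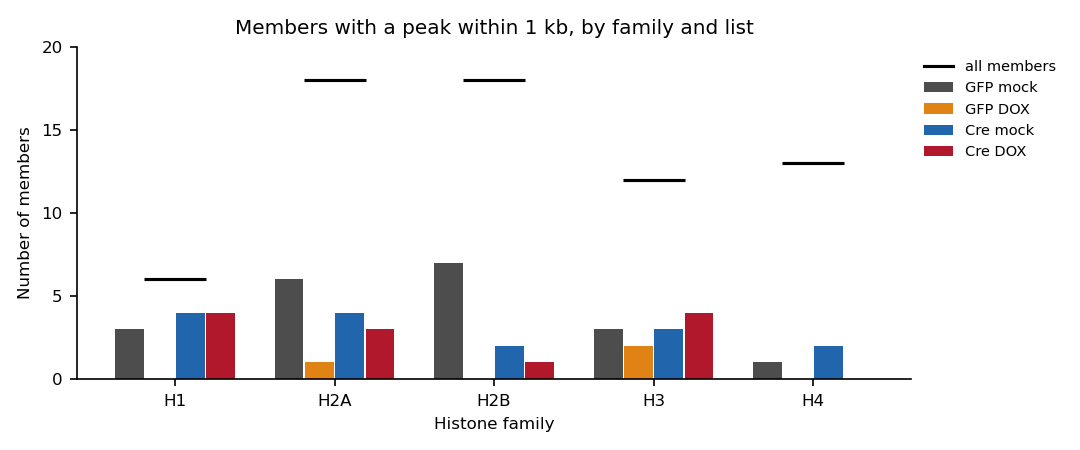
Number of histone genes with a peak within 1 kb, by family (x axis) and list (bars), with the size of each family as a black line. H2B had 7 genes in GFP mock and 0 in GFP DOX, and H1 had 4 genes in each Cre list.

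Of the 18 H2A genes, 7 had a peak, 6 of them in GFP mock and 1 in GFP DOX, with 4 in Cre mock and 3 in Cre DOX. *Hist1h2ai* and the H2B gene *Hist1h2bl* are transcribed away from each other, and a single peak covered both starts in GFP mock (score 33, 4.46-fold) and in Cre mock (score 20, 3.55-fold). No peak was there in either doxycycline list. There were 13 such divergent pairs with starts within 1 kb, 12 of them an H2A with an H2B gene, and this was the only pair with a peak between its starts in any list. The bases between the outermost annotated starts (chr13:21716184-21716411, plus strand) lay wholly inside both peaks and are shown with the CCAAT boxes, on either strand, in capitals.
Hist1h2bl-Hist1h2ai: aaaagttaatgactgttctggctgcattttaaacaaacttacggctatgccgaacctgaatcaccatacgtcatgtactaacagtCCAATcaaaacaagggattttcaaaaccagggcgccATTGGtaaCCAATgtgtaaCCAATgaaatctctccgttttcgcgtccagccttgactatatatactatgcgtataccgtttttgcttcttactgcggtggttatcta
*Hist1h2aa*, a testis form of H2A, had a peak downstream of its end in GFP mock (score 33), Cre mock (17) and Cre DOX (29), with no base in the gene. Between 73.4% and 79.4% of each of these peaks was repeat-masked. The other H2A genes with a peak were *Hist1h2ad* and those of the *Hist2* cluster described below.

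Of the 18 H2B genes, 7 had a peak, and all 7 had it in GFP mock. None had one in GFP DOX, and the Cre counts were 2 (mock) and 1 (DOX). The shares of all protein-coding genes were 55.0% (mock) and 46.0% (DOX) for GFP cells and 60.4% and 54.1% for Cre cells. H2B was below these shares in each list, as were H2A, H3 and H4. By number of genes H2B had the largest drop of any family from GFP mock to GFP DOX. However, no family had more than 2 genes in GFP DOX. As a share of the family the drop was larger in H1, with 3 of 6 genes and none. *Hist3h2ba* had the highest score of any histone gene, 35 in GFP mock (4.35-fold), and no peak in the other lists. Its peak (chr11:58948938-58949195) lay over the first part of the coding sequence, which is shown for that reason (plus strand, coding bases only).
Hist3h2ba: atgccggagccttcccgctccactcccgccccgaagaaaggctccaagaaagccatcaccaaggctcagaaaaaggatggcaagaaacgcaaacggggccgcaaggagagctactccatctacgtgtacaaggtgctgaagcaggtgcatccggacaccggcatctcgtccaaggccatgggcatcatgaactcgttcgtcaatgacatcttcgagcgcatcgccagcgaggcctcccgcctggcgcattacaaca
*Hist1h2bb* (score 23) and *Hist1h2bf* (19) had a peak in GFP mock alone, as did *Hist2h2be* and *Hist2h2bb* (13 each). *Hist1h2be* had 2 peaks in GFP mock, 1 in Cre mock and 2 in Cre DOX, but its annotated body is 37455 bp long and with its margin reaches the peaks of *Hist1h1e*. The Cre mock peak and 1 of the Cre DOX peaks were the ones described for that gene.

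H3 had a peak at 7 of its 12 genes, 3 in each mock list, 2 in GFP DOX and 4 in Cre DOX, and was the family with the most genes in Cre DOX beside H1. *Hist1h3c* had a peak upstream in GFP mock (score 23), over its start in Cre mock (18) and in its body in Cre DOX (12). *Hist1h3d* was in GFP mock alone (25), and *Hist1h3e* was the histone gene found in GFP DOX alone (14, 3.32-fold). H4 had a peak at 3 of its 13 genes, *Hist1h4m* in GFP mock (22) and *Hist1h4j* (15) and *Hist1h4n* (16) in Cre mock, of which only the *Hist1h4j* peak touched the gene. Neither doxycycline list had a peak at any H4 gene. *Hist1h4m* and *Hist1h4n* have identical coding sequences, and only 12.5% and 21.1% of their windows were unique sequence.

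Genes with a peak in any list are given by cluster, beside 26.1% of all protein-coding genes with no peak in any list. *Hist2* on chromosome 3 had a peak at 9 of 10 genes, *Hist1* on chromosome 13 at 20 of 54, *Hist3* on chromosome 11 at 1 of 2, and the lone *Hist4h4* on chromosome 6 at none. In *Hist2*, 6 genes had a peak in GFP mock and 2 in GFP DOX, against 3 in Cre mock and 4 in Cre DOX. Of these counts only that of GFP mock was above the all-gene share of its list (55.0%). By peaks the order was different, since neighboring genes share them. The *Hist2* stretch held 3 peaks in each mock list, 2 in GFP DOX and 7 in Cre DOX, which covered 2.02% (mock) and 1.86% (DOX) of its length in GFP cells and 4.34% and 10.7% in Cre cells. *Hist1* falls into 4 stretches separated by more than 100 kb. In the first (chr13:21715763-21837530), 3 of 18 genes had a peak in GFP mock and 5 in Cre mock, and none had one in either doxycycline list. The second (chr13:22035164-22043676) had no peak at any of its 5 genes in any list. In the third (chr13:23531050-23764406), with 29 genes, the numbers were 9, 1, 6 and 7. In these 3 stretches each count was below the all-gene share of its list. The fourth (chr13:23933773-23934851) holds *Hist1h2aa* and *Hist1h2ba*, of which the former had the downstream peak. Non-histone protein-coding genes within these stretches were *Hfe*, with no peak, and *Trim17*, with a peak in both mock lists and in neither doxycycline list.

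**Figure D4:**
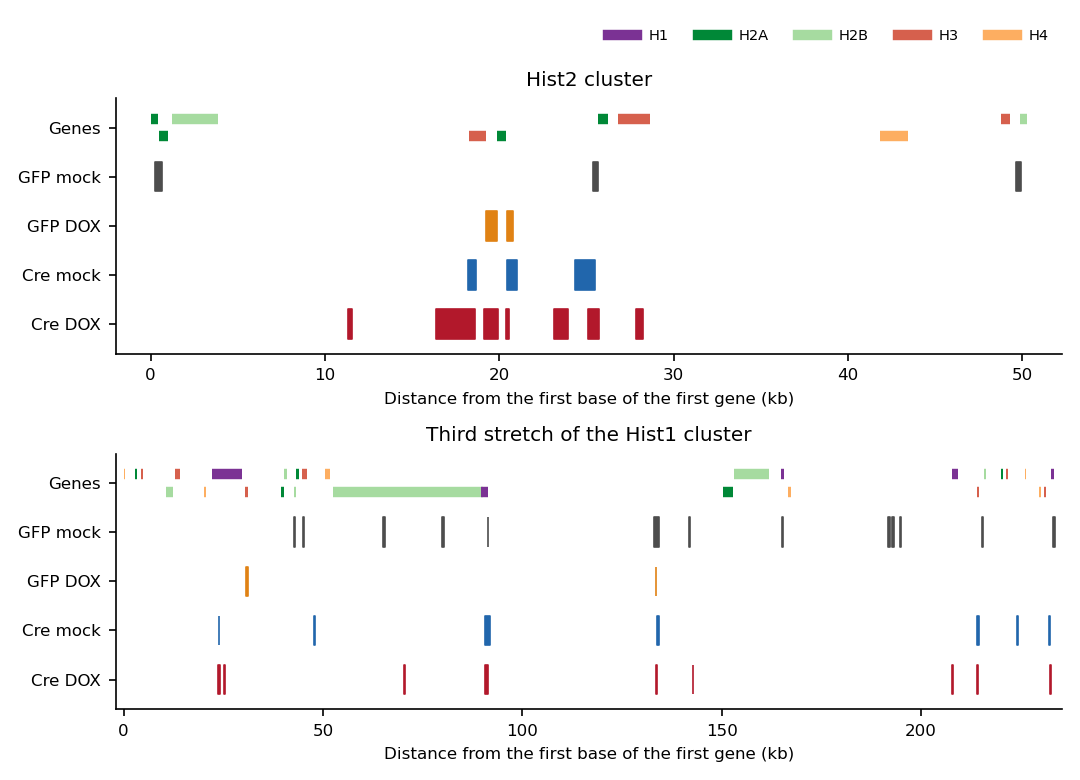
Genes and peaks of the *Hist2* cluster (chromosome 3) and of the third stretch of *Hist1* (chromosome 13), as distance in kb from the first base of the first gene; genes are colored by family with the plus strand above the minus strand, and each block is a peak with a thin outline that keeps narrow peaks visible. In *Hist2*, 3 lists have peaks at each of the paired H2A genes, with GFP mock absent from *Hist2h2aa2* and GFP DOX from *Hist2h2aa1*.

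*Hist2* contains an inverted pair, *Hist2h2aa2* on the minus strand (chr3:96239749-96240276) and *Hist2h2aa1* on the plus strand (chr3:96245497-96246082), which encode the same H2A protein. Their coding sequences are identical, and 52.4% of the 4000 bases centered on the first coding base lie in identical runs of at least 20 bases. *Hist2h2aa2* had peaks just upstream of its start scoring 32 (Cre mock, 4.17-fold) and 31 (GFP DOX, 4.54-fold). In Cre DOX its peak lay across the start (17, 3.09-fold). *Hist2h2aa1* had peaks across its start scoring 20 (GFP mock, 3.64-fold) and 32 (Cre DOX, 3.92-fold). In Cre mock its peak lay upstream of the start (22, 3.45-fold). GFP mock had a peak at 1 copy and GFP DOX at the other, whereas both Cre lists had peaks at both copies. Both upstream sequences are shown because reads from either copy could be placed at the other. They are the 250 bases before the outermost annotated start, with capitals for bases inside the peaks of all 3 lists, at chr3:96245247-96245496 (plus strand) and chr3:96240375-96240624 (minus strand).
Hist2h2aa1: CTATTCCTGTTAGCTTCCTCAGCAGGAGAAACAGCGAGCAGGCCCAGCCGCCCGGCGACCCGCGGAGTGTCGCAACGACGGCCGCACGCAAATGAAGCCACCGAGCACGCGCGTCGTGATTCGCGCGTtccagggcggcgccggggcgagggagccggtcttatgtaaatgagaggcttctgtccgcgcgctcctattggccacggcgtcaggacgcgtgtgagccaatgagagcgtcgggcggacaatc
Hist2h2aa2: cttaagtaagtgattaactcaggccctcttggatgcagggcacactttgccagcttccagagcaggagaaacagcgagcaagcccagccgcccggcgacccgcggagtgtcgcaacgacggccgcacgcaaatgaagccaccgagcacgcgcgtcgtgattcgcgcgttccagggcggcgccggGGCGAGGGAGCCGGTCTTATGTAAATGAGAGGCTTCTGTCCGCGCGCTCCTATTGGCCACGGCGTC
Beside this pair lie the H3 genes. *Hist2h3c2* had a peak over its start, which also lay within 1 kb of the end of *Hist2h2aa2*, in GFP DOX (27) and Cre DOX (21), and peaks across its own end in Cre mock (17) and Cre DOX (19, the widest at 2222 bp). *Hist2h3c1* had a peak in Cre DOX alone (18). A single GFP mock peak with a score of 13 lay across *Hist2h2ab* and *Hist2h2ac* and in the window of *Hist2h2be*, and another with a score of 13 lay past the end of *Hist2h3b* and over the start of *Hist2h2bb*. *Hist2h4* had no peak in any list, like *Hist3h2a* in the *Hist3* cluster.

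Peaks were spread around the genes and were not fixed at the start. Of the 56 pairs of a gene and a peak, the peak midpoint lay upstream in 24, in the body in 20 and downstream in 12. These pairs came from 43 distinct peaks, and a shared peak could be upstream of a gene and in the body of its neighbor. The same split was not made for other genes. The peak covered the annotated start in 14 pairs, the end in 6, and coding bases in 24. The start itself was inside a peak at 5.97% of histone genes for GFP mock and 1.49% for GFP DOX, and at 7.46% for Cre mock and 5.97% for Cre DOX. The values for all protein-coding genes were 8.89%, 8.35%, 12.4% and 8.66%, and those for short genes 6.71%, 8.21%, 11.0% and 8.06%.

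Near-identical copies limit where a read can be placed, so the share of 100-base words found once in the genome was computed for each window, the library reads being 100 bases long. The median was 90.3% for histone windows, with 32 genes under 90% and 8 under 50%, against 99.9% for other one-exon genes and 98.3% for ribosomal protein genes. Histone bodies alone had a median of 67.2%. The least unique windows were those of *Hist1h2bq* and *Hist1h2br*, with 0% each, and of *Hist1h2ao* and *Hist1h2ap*, with 4.20% each, and none of these had a peak. Windows of genes with and without a peak had nearly the same median, 90.2% and 90.7%. For the bodies alone the medians differed, at 75.6% with a peak and 61.5% without. By family the bodies had medians of 99.6% for H1, 81.0% for H4, 69.9% for H2B, 60.0% for H3 and 35.5% for H2A. H1, the most unique family, had a peak at every gene, and H4, the next, at the smallest share of its genes. Among the 35 genes with at least 90% unique windows, 12 had a peak in GFP mock and none in GFP DOX, while 8 had one in Cre mock and 7 in Cre DOX. Among the other 32 the numbers were 8, 3, 7 and 5. The 3 genes with a peak in GFP DOX were all among these 32. Whether reads with several possible positions were kept by the authors is not stated, and the part of repeated sequence in the counts was not tested.

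**Figure D5:**
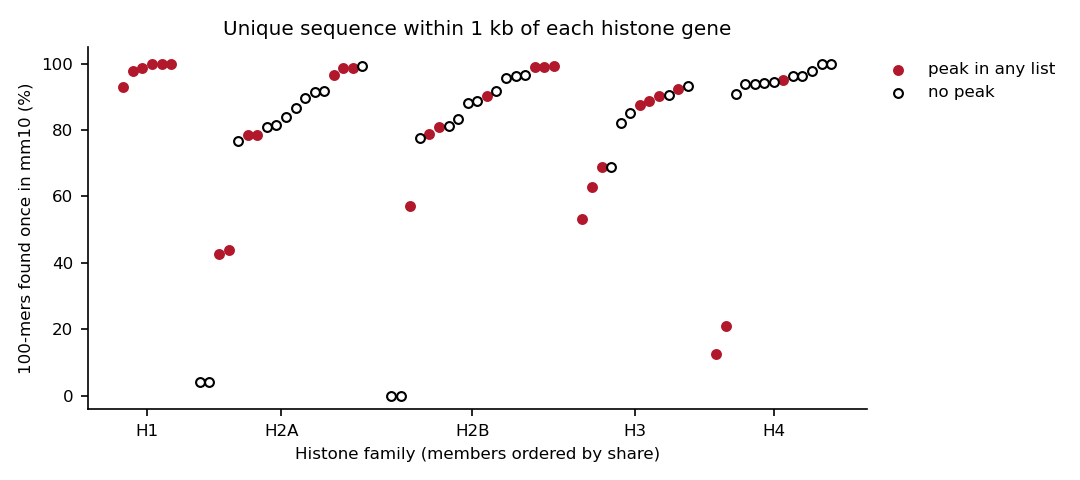
Percentage of 100-base words within 1 kb of each histone gene that occur once in mm10 (y axis), by family, with genes ordered by value; red points had a peak in any list and open points had none. Red and open points overlap over most of the range, and the 4 lowest values, from 0% to 4.20%, belong to genes without a peak.

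The starts of histone genes had a GC content near that of other genes, more CpG and fewer predicted G4s. Within 1 kb of the start the median GC content was 49.4% for histone genes and 51.2% for all protein-coding genes, and the observed over expected ratio of CpG was 0.76 and 0.47. A predicted G4 (G4Hunter, window of 25 bases, absolute score of at least 1.5) lay in that region at 38 of 67 histone genes (56.7%), against 84.1% of all protein-coding genes and 62.2% of one-exon genes. Among the families this was the case for 5 of 6 H1, 11 of 13 H4, 7 of 12 H3, 9 of 18 H2A and 6 of 18 H2B genes.

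Promoter elements were read from RefSeq promoters of GRCm38.p6 (250 bases before to 50 after the start), which were found for 61 of the 67 genes through their current symbols. CCAAT, the binding motif of NF-Y, was present on either strand in 52 of the 61 (85.2%), against 37.4% of 32851 promoters. It was in all 49 promoters of H1, H2A, H2B and H3 genes and in 3 of 12 of H4. TATAAA was in 57.4% against 13.6%. The octamer ATTTGCAT was in 7 of 17 H2A and 7 of 16 H2B promoters and in none of the other families, against 1.74% of all promoters, and AAACACA, known from H1 promoters, was in 5 of 6 H1 promoters, against 7.18%. None of these motifs contains another, and a match is a description of the sequence only.

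Genes of histone supply outside the replication-dependent class are given for comparison. Of 11 replication-independent histone genes, which are transcribed outside S phase as well, 9 had a peak in GFP mock and 8 in GFP DOX, and all 11 had one in Cre mock and 9 in Cre DOX. *H2afz*, which encodes H2A.Z, had scores of 56, 70, 62 and 78 in that order, above those of every replication-dependent histone gene. The others with a peak in all 4 lists were *Cenpa*, *H1fx*, *H2afx*, *H2afy*, *H3f3a* and *H3f3b*, and *H2afv* had one in Cre mock alone (score 26). Their median length was 6051 bp. *H2afx* and *H1fx*, the shortest of those with a peak in all 4 lists (1384 and 1217 bp) but longer than the median replication-dependent gene, had peaks in every list with scores of 12 to 24 and 29 to 43. Of 14 factors for transcription and 3′ processing of histone mRNA, 12 had a peak in Cre DOX and 9 in each of the other lists, with a median length of 24618 bp. As shares these were 85.7% in Cre DOX and 64.3% in each of the others, against 54.1% of all protein-coding genes for Cre DOX, 55.0% for GFP mock, 46.0% for GFP DOX and 60.4% for Cre mock. Those with a peak in all 4 lists were *Slbp*, the hairpin-binding protein (scores 36, 24, 26 and 50), *Npat*, the transcriptional coactivator of histone genes (13, 14, 28 and 18), *Sympk* (97, 52, 36 and 50), *Srrt* (29, 41, 48 and 34) and *Ncbp2* (13, 18, 32 and 21). Both lists contain longer genes than the replication-dependent ones, and this difference was not removed.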

How the data were processed

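DRIP-seq peak lists of 4 libraries were analysed, 1 per group, with groups taken from the labels. The authors digested DNA with 5 restriction enzymes, pooled 3 S9.6 precipitations per group, sequenced single-end reads, and ran the pipeline nf-core/chipseq (BWA, mm10) with MACS2 broad peaks called per library. The stated command carries the narrow-peak option although the lists are broad. The use of inputs as control and the handling of multi-mapping reads are not given in the sources used here. The deposited score is 10 times the −log10 q-value, rounded down. The caller's −log10 q-value (and −log10 p-value) and fold, signal over local background, were deposited beside it. The deposited coordinates were used from 0-based starts. None is normalised between libraries, and deeper libraries give more peaks.

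Genes came from GENCODE M21 and sequence from GRCm38.p6. Windows were gene bodies with 1 kb added. Counts of genes have exact (Clopper-Pearson) intervals at 95% confidence, computed with scipy 1.17.1. Unique sequence was counted as exact words of 100 and 50 bases over both strands, and identical runs of at least 20 bases were sought within 2000 bases of the first coding base. Overlap, word, hairpin and G4 functions were tested on simulated data. Members and lists were chosen with earlier results of these data known. Genes named in the text were those with the highest-scoring peak in each list (5 per list), those found in a single list (up to 5 for Cre mock and 3 for the others), any with a peak in all 4 lists, all of *Hist2* to *Hist4*, and the 3 with the least unique sequence. Further members are named to account for each peak, and were chosen after their values were seen. Alternatives changed the peaks kept, the window, the overlap or the genes counted. The authors kept top-decile peaks for their own comparisons, whereas all deposited peaks were used here and the top decile was an alternative.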

Additional observations from a re-analysis of the deposited data

Results flagged for a closer look

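Several counts of histone genes with a peak moved in opposite directions in paired comparisons. With 1 library per group these differences were not tested. Without doxycycline the count in Cre cells was that of GFP cells less 5 (a difference of -5), and with doxycycline it was higher by 9. The same held for H2B (-5 and 1), H2A (-2 and 2), the *Hist1* cluster (-1 and 7) and the *Hist2* cluster (-3 and 2). For *Hist2* without doxycycline this held for genes only, as the stretch held 3 peaks in each mock list and peaks covered 2.02% of it in GFP mock and 4.34% in Cre mock. Over all histone windows the share inside peaks was higher in Cre cells both without (0.76 percentage points) and with doxycycline (2.55). With equal numbers of peaks the mock counts were 13 (GFP) and 12 (Cre). The all-gene shares were higher in Cre cells both times, 60.4% against 55.0% (mock) and 54.1% against 46.0% (DOX). With doxycycline the H3 count changed by -1 in GFP cells and by 1 in Cre cells, and the *Hist2* count by -4 and 1. The share of histone windows inside peaks changed with doxycycline by -1.46 percentage points in GFP cells and by 0.33 in Cre cells. The low GFP DOX value enters each of the opposite-direction pairs above, and that list is also the smallest of the 4.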

How the results depend on the processing

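The 8 counts of histone genes were recomputed under 11 alternatives, of which the restriction fragment and the unique-window ones were chosen after seeing the data. Of 88 values, 58 stayed within 1.5 times the reported one. GFP mock had the highest count under all 11, and no gene was in both GFP lists under any of them. GFP DOX itself held 0 to 4 genes, which bounds that overlap. Counts are given in the order GFP mock, GFP DOX, Cre mock, Cre DOX, then GFP mock without GFP DOX, GFP mock without Cre mock, Cre mock without GFP mock and Cre mock without Cre DOX. Top-decile peaks alone, the restriction used by the study, gave 4, 1, 0, 1, 4, 4, 0 and 0. Peaks with a −log10 q-value of at least 2 gave 10, 2, 8, 7, 10, 6, 4 and 3. The 35 genes with at least 90% unique windows gave 12, 0, 8, 7, 12, 7, 3 and 2. Fewer genes were counted there, but the share in GFP mock was higher (34.3%) and all 3 genes of GFP DOX were among those left out. With each list cut to its 60219 best-scoring peaks, GFP mock was 13 beside 12 in Cre mock, GFP mock without GFP DOX was 13, and GFP mock without Cre mock was 6 beside 5 for the reverse. Bodies without the margin gave 13 in GFP mock, 8 in Cre mock and 13 in GFP mock without GFP DOX. Windows of 2 kb gave 9 in Cre mock without Cre DOX. The cause was not tested. No paired analysis was possible because each group had 1 library. Depth is unknown, which limits every comparison between lists.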

Other observations

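A place in the third *Hist1* stretch held a peak in all 4 lists although it lies more than 1 kb from every histone gene and overlaps no annotated gene (chr13:23664097-23665372). Its scores were 23 in GFP mock and 15 in each of the others. The GFP mock peak spanned the others, but the Cre mock peak (23664758 to 23665325) did not overlap those of GFP DOX (23664489 to 23664696) or Cre DOX (23664526 to 23664738). The other 10 such places inside the stretches and outside the windows each held a peak in 1 list. The highest score among them was 37, in Cre mock (chr13:23755193-23755331), which exceeded the score of any peak within 1 kb of a histone gene.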
